A study of Mus musculus with 7 samples.

Results

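The thioredoxin and peroxiredoxin system was followed through 10 genes, taken by symbol from a table of 49382 rows: Txn1, Txn2, Txnrd1, Txnrd2, Srxn1, Prdx1, Prdx2, Prdx3, Prdx5 and Prdx6. All 10 were found, on 11 rows, and all 10 averaged 2 TPM or more across the 7 libraries, which makes them part of the 12909 genes used as background. The libraries came from wild-type mouse embryonic fibroblasts (MEFs), a mixed culture of connective tissue cells from embryos of day 13.5 to 14.4 without head and fetal liver, used at passage 3 to 7. The study's methods also describe sorting such cells to remove macrophages. The control label gives no time. Cells were held for 10 hours without glucose, without glutamine or at 0.1% oxygen (hypoxia), and ER stress was 10 hours of 1 µM thapsigargin, a blocker of the calcium pump of the ER. Oxidative stress was 10 µM sodium arsenite (NaAsO2), which binds cellular thiols, and osmotic stress was 100 mM added NaCl, both for 3 hours. Each group was 1 library, so no difference had a replicate check and no p-value is given.

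Values are TPM, transcripts in each 1000000 of a library, thus a share of each library that corrects for transcript length. Changes are differences of log2(TPM + 1) from the control library, a scale that understates the change of genes with low levels. "Rose" and "fell" are used of genes past 2-fold on this scale, and a rank gives the place of a change among the 12909 background genes. The depth behind the values is unknown, and a share of the library depends on what all other genes take up. In bulk RNA, fewer cells of a type and less RNA per cell cannot be told apart. The median change of those 12909 genes lay between -0.16 in oxidative stress and 0.00 in ER stress. The 6 fibroblast markers (Col1a1, Col1a2, Col3a1, Pdgfrb, Vim and Thy1) summed to between 10120 and 12682 TPM in 6 libraries and to 6099 TPM in ER stress. The 6 macrophage markers summed to at most 16.6 TPM, the 4 endothelial markers to at most 7.31 TPM and the 4 epithelial markers to at most 11.6 TPM. Of the macrophage markers, Ptprc was at 0 TPM in control, hypoxia and osmotic stress and reached 0.280 TPM in oxidative stress. Cd68, the highest of the 6 in every library, lay between 5.26 TPM (ER stress) and 9.77 TPM (oxidative stress).

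Thioredoxins are small proteins that reduce disulfides in other proteins, and thioredoxin reductases, which carry selenocysteine, recharge them with electrons from NADPH. Peroxiredoxins use a reactive cysteine to break down hydrogen peroxide, and most of them are recharged by thioredoxin. When peroxide oxidizes that cysteine too far, sulfiredoxin repairs it. A cytosolic set (Txn1, Txnrd1, Srxn1, Prdx1, Prdx2 and Prdx6) stands beside a mitochondrial set (Txn2, Txnrd2 and Prdx3), while Prdx5 is found in several compartments. Txnrd1, Srxn1 and Prdx1 are textbook targets of NRF2, the transcription factor that is released from KEAP1 by oxidants and electrophiles.

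In the control library the 5 peroxiredoxins summed to 1968 TPM of the 2706 TPM of all 10 genes. Prdx1, the main cytosolic peroxiredoxin, was the most abundant at 1089.9 TPM and accounted for 55.4% of the 5 peroxiredoxins. Prdx5 (329 TPM), Prdx2 (319.7 TPM) and Txn1 (300.3 TPM) followed, then Txnrd1 (205 TPM), Txn2 (175 TPM) and Prdx6 (171 TPM). Prdx3 and Srxn1 stood at 58.9 and 54.0 TPM, and Txnrd2 at 3.13 TPM. Together the 10 genes took 0.271% of the control library, 0.226% in hypoxia and 0.331% in oxidative stress.

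Of the 60 changes (10 genes in 6 conditions), 6 were past 2-fold, all of them increases, and they belonged to Txnrd1, Srxn1 and Prdx6. The other 7 genes stayed within 2-fold of the control in all 6 conditions. Among all genes, between 4.24% (glucose depletion) and 19.6% (ER stress) passed 2-fold in either direction. Between 1.83% (glucose depletion) and 8.60% (ER stress) rose, which is the like measure for 6 increases. The 6 changes belong to 3 genes and share a control library, so their count by itself is no test against all genes. The highest TPM over the lowest was 7.52 for Srxn1, 5.83 for Txnrd1 and 3.19 for Prdx6. The narrowest ranges were those of Prdx5 (1.24) and Txn1 (1.25).

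**Figure D1:**
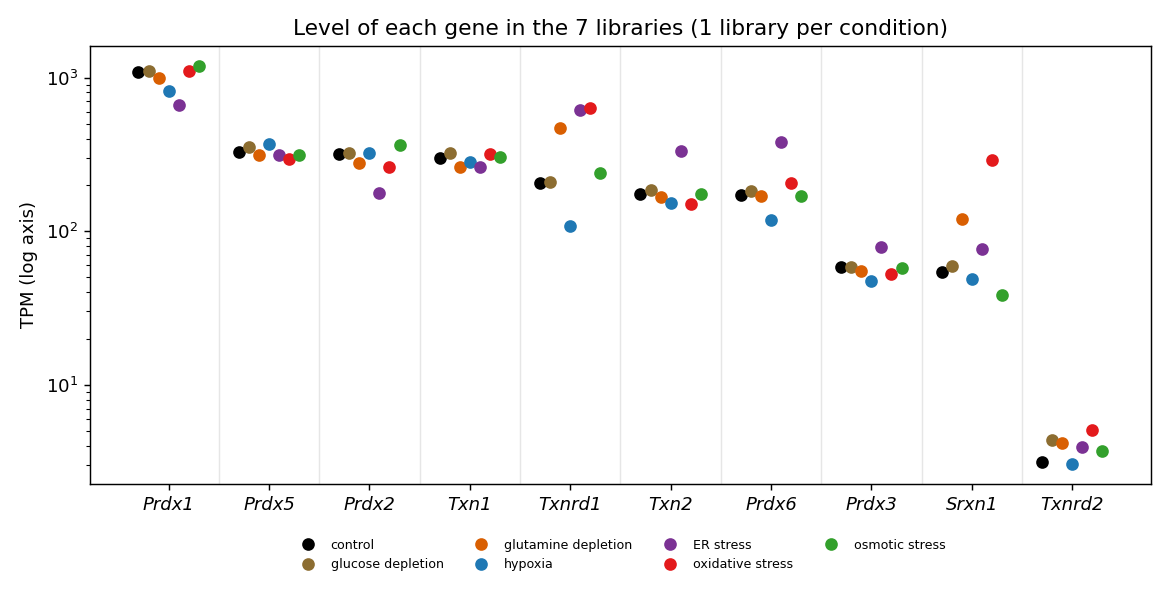
TPM (log axis) of the 10 genes, ordered by their control level, with 1 point per library and colours for the conditions. Srxn1 and Txnrd1 spread over 7.52-fold and 5.83-fold, and Prdx5 and Txn1 over 1.24-fold and 1.25-fold.

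**Figure D2:**
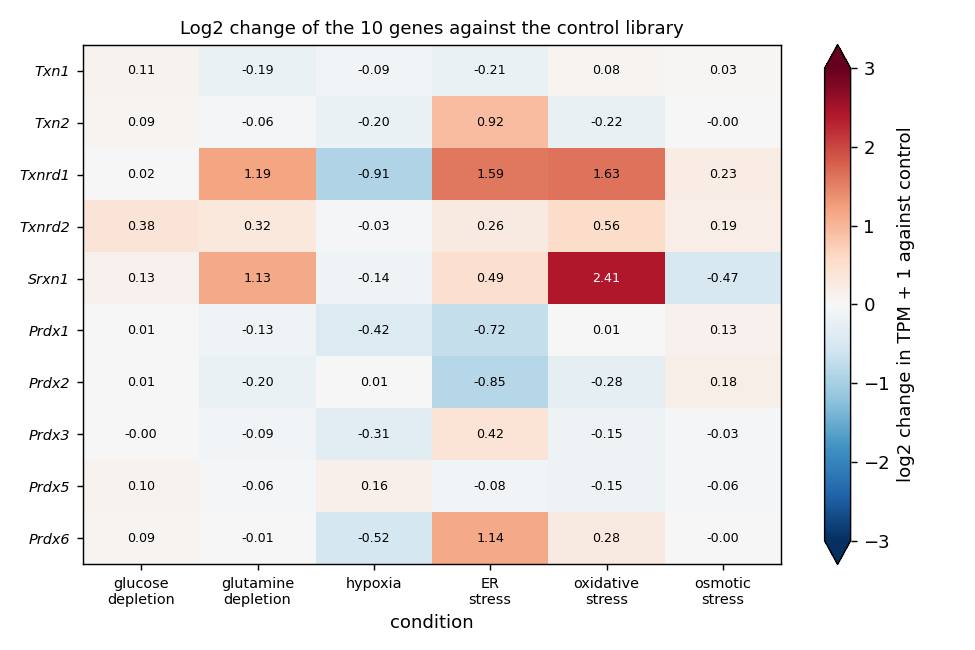
Log2 change in TPM + 1 against the control library for each gene (lines) and condition (columns), red for higher and blue for lower. The largest value is that of Srxn1 in oxidative stress, 2.41, and Txnrd1 is past 1 in glutamine depletion, ER stress and oxidative stress.

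In oxidative stress the repair enzyme and the cytosolic reductase rose, while the thioredoxins and peroxiredoxins had changes between -0.28 and 0.28. Of the 10 genes, 2 rose, against 3.94% of all genes, and 0 fell, against 4.85%. Srxn1 (ENSMUSG00000032802, GRCm38 chr2:152105516-152111376), which encodes sulfiredoxin, was at 54.0 TPM in the control, 59.1 in glucose depletion, 119 in glutamine depletion, 48.9 in hypoxia, 76.1 in ER stress, 291 in oxidative stress and 38.6 in osmotic stress. The arsenite library was the highest of the 7, at a log2 change of 2.41, and 202 of the 12909 genes rose more. Txnrd1 (ENSMUSG00000020250, chr10:82833951-82897712), the cytosolic thioredoxin reductase, was at 205 TPM in the control, 208 in glucose depletion, 468 in glutamine depletion, 109 in hypoxia, 617 in ER stress, 634 in oxidative stress and 241 in osmotic stress. Its log2 change in oxidative stress was 1.63, and 289 genes rose more.

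The substrates of these enzymes did not pass 2-fold in the arsenite library. Txn1 (ENSMUSG00000028367, chr4:57943373-57956411), the cytosolic thioredoxin, was at 317 TPM, a log2 change of 0.08. Prdx1 (ENSMUSG00000028691, chr4:116685544-116700822) was at 1099 TPM, a change of 0.01. Both stood near their control share in the library where Srxn1 and Txnrd1 rose. Prdx6, which uses a single catalytic cysteine and is recharged by glutathione, had a change of 0.28, and Prdx2, a cytosolic relative of Prdx1 that is prominent in red cells, had -0.28. The mitochondrial genes had changes of -0.22 (Txn2), -0.15 (Prdx3) and 0.56 (Txnrd2). The median over the 10 genes was 0.04, against -0.16 over all genes.

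Other genes of the NRF2 axis moved in the same library. Of 9 listed genes, 4 rose in oxidative stress, against 3.94% of all genes, and 0 fell, against 4.85%, with a median change of 0.42 against -0.16. Hmox1, the enzyme that degrades heme, went from 266.5 to 6055 TPM. The cystine transporter gene Slc7a11 had a log2 change of 2.22, and the subunits of the enzyme that starts glutathione synthesis, Gclm and Gclc, had 1.58 and 1.42. Nqo1, a quinone reductase, had 0.42, Gsr, the glutathione reductase, 0.19, and Nfe2l2, which encodes NRF2 itself, 0.42. Keap1 went from 34.2 to 17.0 TPM, a log2 change of -0.97 that did not pass 2-fold.

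Because Srxn1, Txnrd1 and Prdx1 are all known NRF2 targets and had such different changes, their promoters are shown. RefSeq start sites on GRCm38.p6 were found for 9 of the 10 genes (11 windows of 300 bases, from 250 before to 50 after a start), and Prdx6 had no entry. The windows were searched on both strands for the letters TGACNNNGC and TGAGNNNGC, forms of the antioxidant response element that NRF2 binds, and for TGAGTCA, the AP-1 site, which reads TGACTCA on the other strand. The last can overlap either of the first 2. The 250 bases before the start are printed 5′ to 3′ on the strand of the gene, with matches in capitals, for Srxn1 (chr2:152105274-152105523, plus strand), Prdx1 (chr4:116685349-116685598, plus strand) and the Txnrd1 start that holds a match (chr10:82858956-82859205, plus strand).
Srxn1: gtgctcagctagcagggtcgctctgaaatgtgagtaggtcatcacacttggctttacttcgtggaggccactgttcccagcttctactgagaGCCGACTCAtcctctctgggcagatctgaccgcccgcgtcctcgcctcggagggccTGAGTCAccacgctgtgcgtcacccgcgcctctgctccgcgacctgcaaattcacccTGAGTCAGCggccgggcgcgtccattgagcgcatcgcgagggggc
Prdx1: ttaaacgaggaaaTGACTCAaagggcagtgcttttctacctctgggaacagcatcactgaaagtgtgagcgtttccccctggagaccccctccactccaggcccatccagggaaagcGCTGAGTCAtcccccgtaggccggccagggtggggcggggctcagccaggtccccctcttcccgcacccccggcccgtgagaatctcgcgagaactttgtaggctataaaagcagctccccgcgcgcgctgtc
Txnrd1: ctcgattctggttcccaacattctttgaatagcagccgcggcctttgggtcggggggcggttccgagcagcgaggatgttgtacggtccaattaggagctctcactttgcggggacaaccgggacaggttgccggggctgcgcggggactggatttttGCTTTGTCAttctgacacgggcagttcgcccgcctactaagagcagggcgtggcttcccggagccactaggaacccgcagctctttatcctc

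Both Srxn1 and Prdx1 hold TGAGTCA, at different distances from the start. Any part of these letters in the levels of the genes was not tested. In Srxn1, TGAGTCA begins 102 and 45 bases before the start, and the nearer match reads on to TGAGTCAGC, a form of TGAGNNNGC. In Prdx1, it begins 237 and 131 bases before the start, and the nearer match overlaps TGACTCAGC on the opposite strand, beginning 133 bases before. Both windows thus hold TGAGTCA at 2 places. Of the 32851 windows of all genes, 0.222% hold it at 2 or more places and 5.20% at least once. The count at 2 places was not planned and follows what these 2 windows hold, so its share is a description and no test. Srxn1 had a log2 change of 2.41 in oxidative stress and Prdx1 one of 0.01.

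Outside these sites, Srxn1 holds TGAGTCGGC on the opposite strand 158 bases before the start and TGACCTAGC 28 bases after it, and Prdx1 holds TGAGAACGC 15 bases after it. Of the 3 Txnrd1 starts, 1 holds a match, TGACAAAGC on the opposite strand 92 bases before it. The deposited values are sums over transcripts, so the start used by Txnrd1 was not measured here. Txn2 holds TGAGAGGGC, and the windows of Txn1, Txnrd2, Prdx2, Prdx3 and Prdx5 hold no match to any of the motifs. Over all windows, 12.4% hold TGACNNNGC and 17.6% hold TGAGNNNGC. These matches describe letters only, and binding was not measured.

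In glutamine depletion Txnrd1 and Srxn1 rose as well, at lower TPM than with arsenite. Of the 10 genes 2 rose, against 3.21% of all genes, and 0 fell, against 3.21%. Txnrd1 had a log2 change of 1.19, with 311 genes that rose more, and Srxn1 had 1.13, with 342 that rose more. The other 8 genes lay between -0.20 (Prdx2) and 0.32 (Txnrd2), and the median over the 10 was -0.06, against -0.09 over all genes. Relative to the mean log2 level of the other 5 stress libraries in place of the control, Txnrd1 stood at 0.68 and Srxn1 at 0.65, so that both were short of 2-fold.

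The rest of the NRF2 axis did not pass 2-fold in glutamine depletion, where 0 of 9 listed genes rose and 0 fell, against 3.21% of all genes in each direction. Hmox1 was at 265 TPM against 266.5 in the control. Gclm had a log2 change of -0.17, Gclc -0.34 and Nqo1 -0.41, while Slc7a11 had 0.77 at 5.11 TPM. Keap1 went from 34.2 to 18.1 TPM (-0.88). All 6 comparisons use the same control library, so their values are set side by side and are not independent of each other.

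In ER stress the reductase and 1 peroxiredoxin rose, and other peroxiredoxins had values below the control. Of the 10 genes 2 rose, against 8.60% of all genes, and 0 fell, against 11.0%. Txnrd1 rose by a log2 change of 1.59, and 436 genes rose more. Prdx6 (ENSMUSG00000026701, chr1:161240112-161251219) was at 171 TPM in the control, 181 in glucose depletion, 169 in glutamine depletion, 119 in hypoxia, 379 in ER stress, 207 in oxidative stress and 170.5 in osmotic stress. The ER stress library was the highest of the 7 for Prdx6, with a log2 change of 1.14 and 845 genes that rose more.

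Among the mitochondrial genes, Txn2 and Prdx3 were at their highest in ER stress, without passing 2-fold. Txn2 (ENSMUSG00000005354, chr15:77915047-77929006), the mitochondrial thioredoxin, was at 175 TPM in the control, 186 in glucose depletion, 168 in glutamine depletion, 153 in hypoxia, 331 in ER stress, 150.4 in oxidative stress and 175 in osmotic stress. Its log2 change in ER stress was 0.92, just short of 2-fold, and the other 6 libraries lay within 150.4 to 186 TPM. Prdx3 (ENSMUSG00000024997, chr19:60864051-60874556), the mitochondrial peroxiredoxin, was at 79.2 TPM in ER stress (0.42) and between 47.2 and 58.9 TPM in the other libraries.

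The major cytosolic peroxiredoxins stood at their lowest in ER stress. Prdx1 was at 661 TPM, a log2 change of -0.72, against 812 TPM in hypoxia and 996 to 1192 TPM in the other 5 libraries. Prdx2 (ENSMUSG00000005161, chr8:84969587-84974834) was at 177 TPM, a change of -0.85, against 263 to 363 TPM elsewhere. Neither passed 2-fold. Prdx1 went from 55.4% to 41.1% of the 5 peroxiredoxins' TPM, and Prdx6 went from 8.68% to 23.6%. The median over the 10 genes was 0.34, against 0.00 over all genes. The fibroblast markers were also at their lowest in this library, as given above, and their part in these values was not tested.

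Hypoxia gave the lowest Txnrd1 of the 7 libraries. Of the 10 genes 0 rose, against 3.57% of all genes, and 0 fell, against 2.64%. Txnrd1 was at 109 TPM, a log2 change of -0.91, and 414 of the 12909 genes had a lower change. Prdx6 had -0.52, Prdx1 -0.42 and Prdx3 -0.31, and of the 10 genes 8 were below and 2 above their control value. Prdx5 (ENSMUSG00000024953, chr19:6906697-6910106), an atypical peroxiredoxin, was at its highest here, at 368 TPM against 295.7 to 353 TPM in the other libraries. Relative to the other 5 stress libraries, Txnrd1 in hypoxia stood at -1.84, and it was then the only gene of the 10 past 2-fold there. The share of all genes past 2-fold with that reference was not computed.

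Glucose depletion and osmotic stress left all 10 genes within 2-fold. In glucose depletion 0 rose, against 1.83% of all genes, and 0 fell, against 2.41%, and the changes lay between 0.00 (Prdx3) and 0.38 (Txnrd2). In osmotic stress 0 rose, against 3.08%, and 0 fell, against 8.76%, and the changes lay between -0.47 (Srxn1) and 0.23 (Txnrd1). The median over the 10 genes was 0.09 in glucose depletion and 0.01 in osmotic stress, against -0.02 and -0.12 over all genes. Osmotic stress gave the lowest Srxn1 and the highest Prdx1 (1192 TPM) and Prdx2 (363 TPM) of the 7 libraries.

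Txnrd2 was the scarcest gene, and its level is uncertain. The mitochondrial reductase (ENSMUSG00000075704, chr16:18426384-18479073) was at 3.13 TPM in the control, 4.38 in glucose depletion, 4.15 in glutamine depletion, 3.06 in hypoxia, 3.93 in ER stress, 5.07 in oxidative stress and 3.70 in osmotic stress. The highest, oxidative stress, was 1.66 times the lowest, hypoxia. A second row of the same symbol (ENSMUSG00000099282) held the same values, and their sum was 6.26 TPM in the control and 10.1 TPM in oxidative stress, with a log2 change of 0.62 in place of 0.56. Prdx2 overlaps Junb (up to 184 TPM) and Rnaseh2a (39.4 TPM) on the opposite strand, and Prdx5 overlaps Trmt112 (81.9 TPM), so reads from the shared stretches could be split between them. Txnrd1 overlaps Eid3, which reached 3.48 TPM, on the same strand. The listed copies Prdx6b, Prdx6-ps2 and Txn-ps1 reached at most 0.0399, 0.334 and 1.05 TPM.

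**Figure D3:**
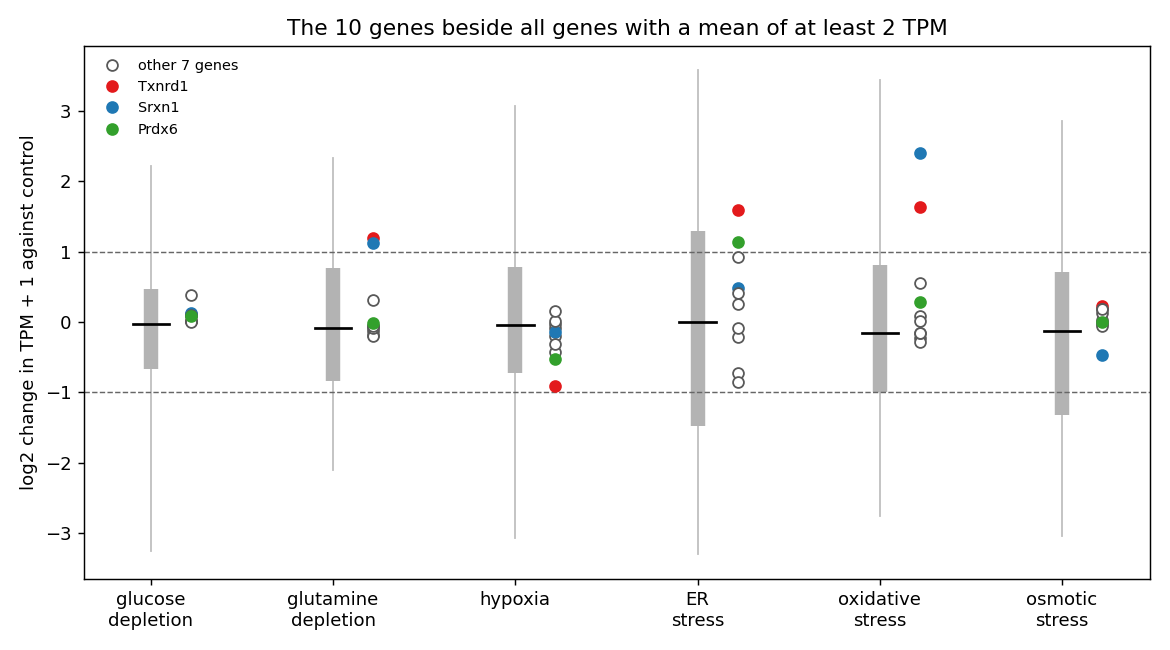
Log2 change in TPM + 1 against control by condition, with a thick bar from the 5th to the 95th and a thin line from the 1st to the 99th percentile of the 12909 genes, a black line at their median and 1 point for each of the 10 genes. Dashed lines mark 2-fold, which is passed by Txnrd1 and Srxn1 in glutamine depletion and oxidative stress and by Txnrd1 and Prdx6 in ER stress.

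Ratios of the TPM of enzyme genes to the TPM of the genes of their substrates were computed within each library. These do not depend on how the library was scaled, and protein was not measured. Txnrd1 stood at 68.1 TPM per 100 TPM of Txn1 in the control, 64.1 in glucose depletion, 178 in glutamine depletion, 38.6 in hypoxia, 237 in ER stress, 200.1 in oxidative stress and 78.7 in osmotic stress. The TPM of Txnrd1 thus exceeded the TPM of Txn1 in 3 libraries. Srxn1 stood at 3.67 TPM per 100 TPM of its substrates Prdx1, Prdx2 and Prdx3 in the control, 4.0 in glucose depletion, 8.98 in glutamine depletion, 4.14 in hypoxia, 8.30 in ER stress, 20.5 in oxidative stress and 2.40 in osmotic stress. In ER stress, where this ratio was above the control, Srxn1 itself had a change of 0.49 and Prdx1 and Prdx2 had -0.72 and -0.85. Txn2 stood at 127 TPM per 100 TPM of Txn1 in ER stress and between 47.5 and 63.8 in the other 6 libraries.

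**Figure D4:**
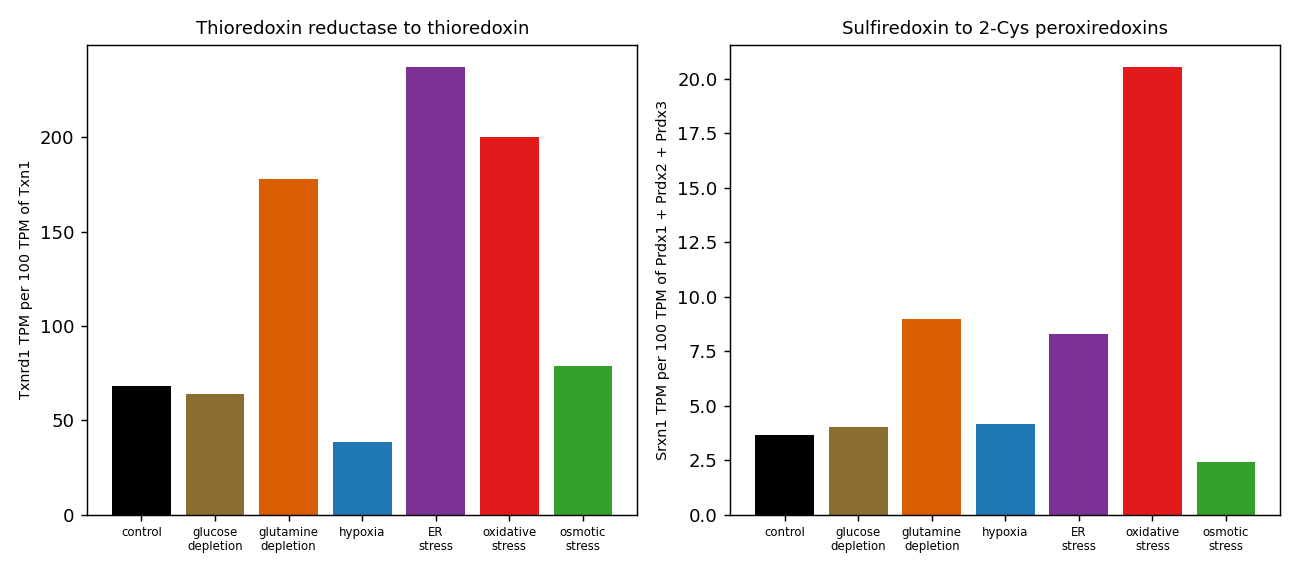
Bars from 0 for the 7 libraries: TPM of Txnrd1 per 100 TPM of Txn1 (left) and TPM of Srxn1 per 100 TPM of Prdx1, Prdx2 and Prdx3 summed (right). The left ratio is 237, 200.1 and 178 in ER stress, oxidative stress and glutamine depletion against 68.1 in the control, and the right one is 20.5 in oxidative stress against 3.67.

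A pair of comparisons at equal treatment times did not use the control library. At 3 hours, 2 of the 10 genes were more than 2-fold higher with arsenite than with NaCl, against 7.86% of all genes, and 0 were lower, against 3.90%. Srxn1 was at 291 against 38.6 TPM (log2 difference 2.88) and Txnrd1 at 634 against 241 TPM (1.39), while Prdx2 differed by -0.46 and Txn1 by 0.05. At 10 hours, 3 of the 10 genes were more than 2-fold higher with thapsigargin than in hypoxia, against 10.9%, and 0 were lower, against 11.5%. These were Txnrd1 (2.49), Prdx6 (1.66) and Txn2 (1.11), while Srxn1 differed by 0.63 and Prdx2 by -0.86.

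Lists of related genes placed these values in the wider pathway. Among 9 thioredoxin relatives and regulators, 1 fell in glucose depletion, where 2.41% of all genes fell, and 1 in osmotic stress, where 8.76% did, in both cases Txnip, which encodes an inhibitor of thioredoxin that is under the control of the glucose-responsive factor MondoA. Txnip was at 70.7 TPM in the control, 16.1 in glucose depletion, 68.7 in glutamine depletion, 91.7 in hypoxia, 120 in ER stress, 44.9 in oxidative stress and 7.22 in osmotic stress. In ER stress 2 of the 9 fell, against 11.0% of all genes, namely the nucleoredoxin gene Nxn (-1.61) and the glutaredoxin gene Glrx (-1.37). The median of the 9 there was 0.11 against 0.00. In each of the 6 conditions 0 of the 9 rose, against 1.83% (glucose depletion) to 8.60% (ER stress) of all genes.

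Among genes for proteins that thioredoxin reduces, 7 of 8 listed passed the expression filter. With thapsigargin 3 of the 7 fell, against 11.0% of all genes, 0 rose, against 8.60%, and 4 stayed within 2-fold, with a median change of -0.88 against 0.00 over all genes. Msrb3 and Msrb2, which repair oxidized methionine, had log2 changes of -1.54 and -1.38, and Rrm1, the large subunit of ribonucleotide reductase, had -1.34. No client passed 2-fold in the other 5 conditions, where between 4.24% (glucose depletion) and 11.8% (osmotic stress) of all genes did. Map3k5, which encodes the kinase ASK1 that thioredoxin holds inactive, was the client below the filter, at 2.41 TPM in the control.

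In the list of 9 peroxide and thioredoxin-fold enzymes of the ER, 3 genes rose in ER stress, against 8.60% of all genes, and 2 fell, against 11.0%. The ER oxidases Ero1lb and Ero1l rose by log2 changes of 2.95 and 1.94, and Txndc11 by 1.29. The ER peroxidases Gpx8 and Gpx7 fell, Gpx8 with a change of -1.99 and Gpx7 from 72.9 to 35.9 TPM, at the edge of 2-fold. Prdx4, the peroxiredoxin of the ER, was at 126 TPM in both the control and ER stress, and lay between 107 and 136 TPM over all 7 libraries. In hypoxia 1 of the 9 rose, against 3.57% of all genes, Ero1l, from 37.2 to 327 TPM, and 0 fell, against 2.64%. None of 7 other peroxide and superoxide enzymes (Cat, Gpx1, Gpx3, Gpx4, Sod1, Sod2 and Sod3) passed 2-fold in any of the 6 conditions, and the largest change among them was -0.60, reached by Gpx3 and Sod3 in ER stress. Among all genes, between 4.24% (glucose depletion) and 19.6% (ER stress) passed 2-fold.

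The NRF2 list in ER stress gave 2 genes of 9 that rose, Hmox1 (2.75) and Slc7a11 (2.44), against 8.60% of all genes, and 0 that fell, against 11.0%. Gclc at 0.98 and Gclm at 0.82 were short of 2-fold, and the median was 0.52 against 0.00. In glucose depletion, hypoxia and osmotic stress 0 of the 9 rose and 0 fell. Among all genes, 1.83% rose and 2.41% fell in glucose depletion. These shares were 3.57% and 2.64% in hypoxia, and 3.08% and 8.76% in osmotic stress. Hmox1 in hypoxia was at 497 TPM, a log2 change of 0.90, in the library where Txnrd1 was lowest. Nqo1 lay between -0.60 in hypoxia and 0.42 in oxidative stress.

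**Figure D5:**
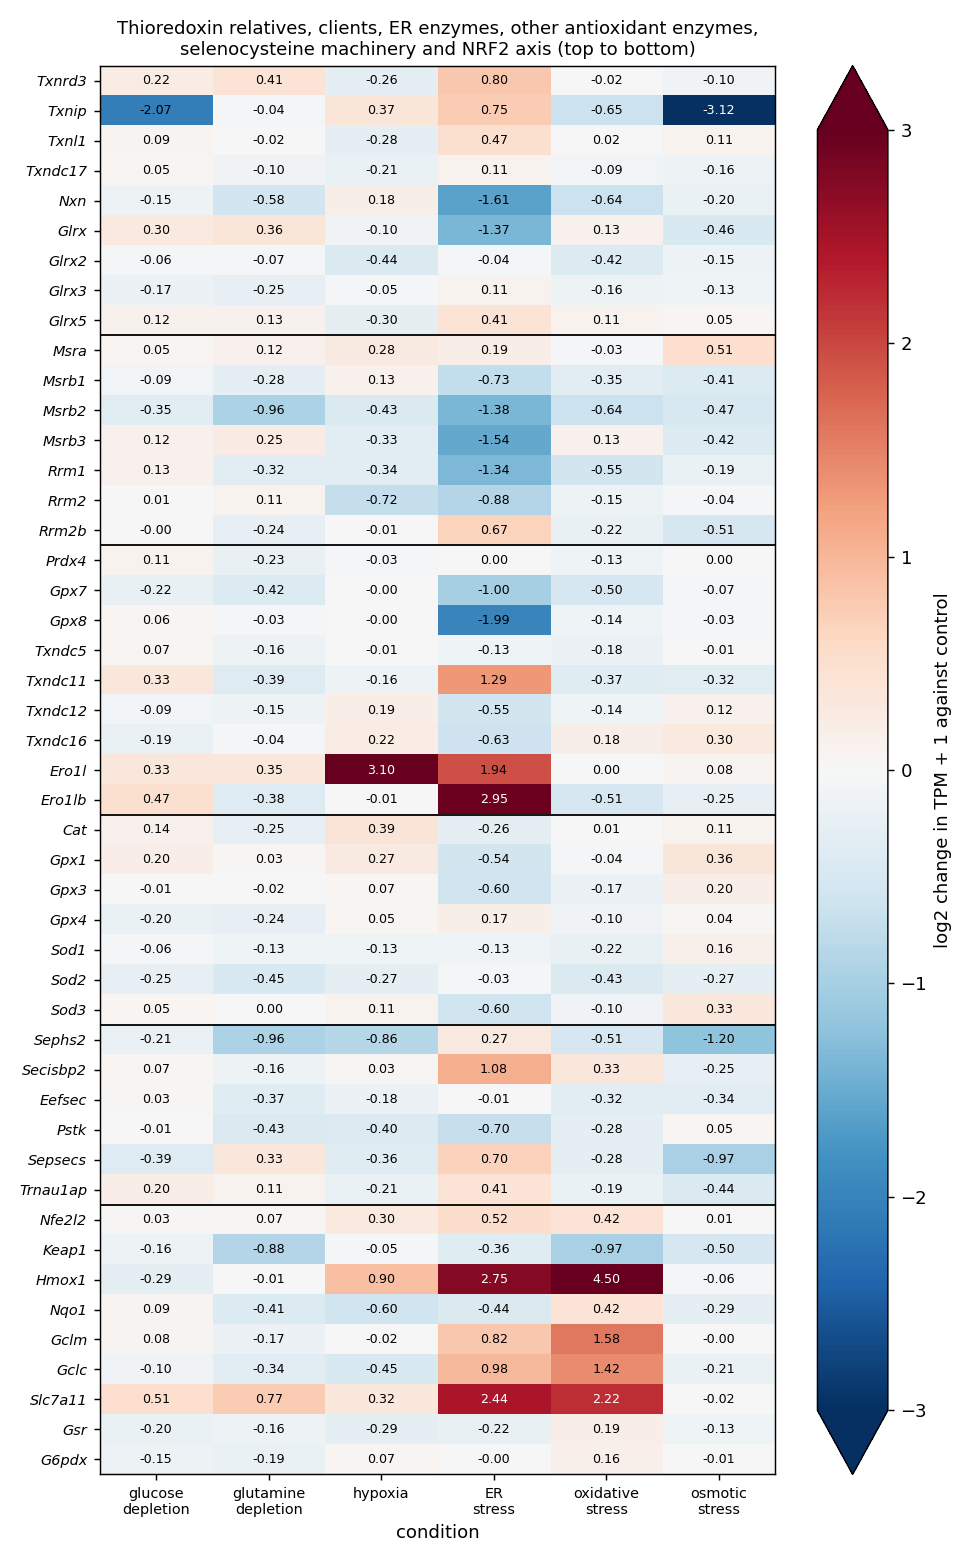
Log2 change in TPM + 1 against control for 6 gene lists, separated by black lines, with conditions as columns, red for higher and blue for lower (colours saturate at 3). Txnip is at -2.07 in glucose depletion and -3.12 in osmotic stress, and Hmox1 at 4.50 in oxidative stress.

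The genes whose levels over the 7 libraries were most like those of Srxn1, Txnrd1 and Prdx1 were sought among 3763 genes averaging 10 TPM or more and spanning at least 1 log2 unit. For Srxn1 these were Vps37b (Pearson r 0.967), Cyth1 (0.948), Kif2a (0.947), Akap2 (0.947) and Micall1 (0.941). For Txnrd1 they were Mapk6 (0.976), Smurf1 (0.970), Slc20a1 (0.966), Plk3 (0.965) and Cfap43 (0.955). For Prdx1 they were Atp1b3 (0.977), Chpf2 (0.964), Fam129b (0.961), Lig1 (0.949) and Flot2 (0.949). Slc20a1, a phosphate transporter, was lowest in hypoxia and highest in the same 3 libraries as Txnrd1, with 70.9 TPM in hypoxia, 142.5 in the control, 392.5 in glutamine depletion, 580 in oxidative stress and 629 in ER stress. Within the system, where the limits on level and span were not applied, the closest were Txnrd2 for Srxn1 (0.772), Prdx6 for Txnrd1 (0.763) and Prdx2 for Prdx1 (0.762). Txnrd2 would not have met the limit on level, since it lay between 3.06 and 5.07 TPM. All these likenesses are descriptions over 7 points that share their libraries and scaling.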

How the data were processed

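RNA of MEFs was sequenced as stranded mRNA libraries with paired reads of 76 bases. The authors quantified reads with Kallisto (0.43.1 in the submitters' processing notes) at default settings, which do not use strand, against cDNA of Ensembl release 90 on GRCm38. The deposited TPM are sums over each gene's transcripts. Libraries were assigned to groups by their treatment labels, with 1 per group. From the deposited TPM, differences of log2(TPM + 1) from the control were computed, counting changes past 2-fold, the rule the study's methods state. Background shares used the 12909 genes that averaged 2 TPM or more. For the changes of the 10 genes and of the lists, identical rows of a symbol counted once. The background counted every row, so its 12909 genes include repeated rows such as that of Txnrd2. Gene positions came from GENCODE M21 (GRCm38), promoters from RefSeq (GRCm38.p6). The genes and lists were chosen with earlier results of these data known. All 10 genes are named, and of other lists those past 2-fold. TGAGNNNGC was added after the sequences were seen. The share of windows with TGAGTCA at 2 or more places was not planned either. Computation ran in Python 3.11.15 with pandas 2.3.3, numpy 2.4.6 and, for plots, matplotlib 3.10.9. The fold rule was run on simulated data with planted changes well past 2-fold and little noise. That run checks the computation only, and does not model variation between cultures or genes with low levels. Alternatives were other pseudocounts, filters, thresholds, scalings and references.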

Additional observations from a re-analysis of the deposited data

How the results depend on the processing

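With pseudocounts of 0.1 or 5 TPM, changes taken relative to the all-gene median, or mitochondrially encoded genes removed, all 60 gene changes kept their side of 2-fold, as they did with the Txnrd2 rows summed, an alternative chosen after seeing the data. A 1.5-fold threshold gave 1 gene in hypoxia and 5 in ER stress, in place of 0 and 2. With the mean of the other 5 stress libraries as reference, 0 genes passed 2-fold in glutamine depletion in place of 2, and 1 each in hypoxia (Txnrd1, -1.84) and osmotic stress (Srxn1, -1.28) in place of 0. A high level in other stress libraries enters that reference. The share of all genes was not computed for that reference or for the 1.5-fold threshold. These counts therefore cannot be set against all genes. The share of all genes past 2-fold in either direction depended on the filter. In glucose depletion it was 4.24%, but 1.79% for genes of at least 10 TPM and 1.04% for protein-coding genes (this set, too, was picked with the data seen). The same 3 values were 6.41%, 4.04% and 3.75% in glutamine depletion, 6.21%, 3.48% and 2.95% in hypoxia, 8.78%, 5.47% and 5.25% in oxidative stress, and 11.8%, 6.71% and 8.75% in osmotic stress. In ER stress they were 19.6%, 17.1% and 16.9%, and the share was 12.5% with no filter. No paired analysis was possible because each group has 1 library. The depth is unknown, and small changes cannot be told from variation between cultures.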

Other observations

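Thioredoxin reductases contain selenocysteine, which a dedicated set of genes inserts during translation. Of 6 listed genes, 1 rose in ER stress, against 8.60% of all genes, and this was Secisbp2, which encodes the protein that binds the selenocysteine signal of the mRNA, from 8.93 to 20.1 TPM (log2 change 1.08). Sephs2, which makes the selenium donor and is itself a selenoprotein, was at 37.2 TPM in the control, 32.1 in glucose depletion, 18.6 in glutamine depletion, 20.04 in hypoxia, 45.1 in ER stress, 25.8 in oxidative stress and 15.7 in osmotic stress. It fell in osmotic stress (-1.20), against 8.76% of all genes. Sephs2 and Txnrd1 had changes of opposite sign in glutamine depletion (-0.96 and 1.19) and oxidative stress (-0.51 and 1.63). Their signs also differed in osmotic stress (-1.20 and 0.23) and glucose depletion (-0.21 and 0.02). They were the same in hypoxia (-0.86 and -0.91) and ER stress (0.27 and 1.59). The 6 genes had a median change of 0.34 with thapsigargin and -0.28 with arsenite, where all genes had 0.00 and -0.16.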
